A study of Mus musculus with 14 samples.

Results

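The 10 genes described here belong to the circadian clock, and they were followed in RNA of CD4+ T-cells, the helper T lymphocytes, from 7 Roquinsan/+ and 7 Wild Type mice. A probe was taken as a member where its gene name on the array was Per1, Per2, Per3, Nr1d1, Nr1d2, Dbp, Tef, Arntl, Clock or Bhlhe40. This rule found 26 of 56605 probes that were not controls. Roquinsan/+ mice carry 1 copy of the sanroque allele of Roquin, an RNA-binding protein that promotes the decay of messenger RNAs in T-cells, and the Wild Type mice carry none. Each mouse was measured on 1 one-colour array, and the arrays are named here by genotype (SRQ for Roquinsan/+, WT for Wild Type) and replicate letter. The labels give no age, sex, strain or hour of collection, and they name no separate cohorts or litters, so the spread between arrays is that between these 14 samples.

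The mammalian clock is a loop of transcription and repression. Clock and Arntl (also called Bmal1) form an activator that binds E-box sequences and switches on the Per genes, the Nr1d genes, Dbp, Tef and Bhlhe40. The Per proteins then repress the activator, the Nr1d proteins (Rev-erbs) repress Arntl, Bhlhe40 (Dec1) competes for E-boxes, and Dbp and Tef activate genes through D-box sequences. In a tissue sampled around the clock the E-box genes rise and fall at related phases, and Arntl peaks at about the opposite phase. T-cells carry this loop, as most cells do.

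Promoter sequence is shown for the 3 genes whose levels moved most closely together across the arrays, Per1, Tef and Nr1d2. RefSeq windows were found for 8 of the 10 genes, with 13 windows in all, and the 250 bases before each transcription start were searched for the E-box CACGTG, which reads the same on both strands. The E-box was present in 3 of the 13 windows, 1 of Per1 and both of Tef, against 6.02% of all 32851 windows of this length. The windows are given on build GRCm38 from 5′ to 3′ on the strand of the gene, with the E-box in capitals. The Per1 window lies at chr11:69098699-69098948 on the plus strand, the Tef windows at chr15:81802423-81802672 and chr15:81811164-81811413 on the plus strand, and the Nr1d2 window at chr14:18239107-18239356 on the minus strand.
Per1: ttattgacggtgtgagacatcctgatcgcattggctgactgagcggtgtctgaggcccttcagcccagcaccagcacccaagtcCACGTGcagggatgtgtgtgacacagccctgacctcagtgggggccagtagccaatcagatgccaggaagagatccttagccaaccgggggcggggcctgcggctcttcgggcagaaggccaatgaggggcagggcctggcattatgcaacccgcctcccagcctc
Tef, upstream start: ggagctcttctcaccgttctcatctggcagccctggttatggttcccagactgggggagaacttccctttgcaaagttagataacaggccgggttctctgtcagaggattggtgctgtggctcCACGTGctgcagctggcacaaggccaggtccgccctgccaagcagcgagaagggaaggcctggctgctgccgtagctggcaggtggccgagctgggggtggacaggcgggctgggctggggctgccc
Tef, downstream start: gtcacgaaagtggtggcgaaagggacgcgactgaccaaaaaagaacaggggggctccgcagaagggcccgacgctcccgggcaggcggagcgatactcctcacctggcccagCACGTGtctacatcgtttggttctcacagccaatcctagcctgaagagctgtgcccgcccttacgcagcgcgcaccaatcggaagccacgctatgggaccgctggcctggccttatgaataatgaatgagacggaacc
Nr1d2: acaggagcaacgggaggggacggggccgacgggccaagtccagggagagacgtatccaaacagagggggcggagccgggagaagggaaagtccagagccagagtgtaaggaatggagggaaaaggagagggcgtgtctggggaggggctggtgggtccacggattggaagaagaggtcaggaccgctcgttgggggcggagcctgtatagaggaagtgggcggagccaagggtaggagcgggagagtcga
The E-box began 166 bases before the start in Per1 and 127 and 138 bases before the starts in Tef. The second Per1 window and the Nr1d2 window hold no CACGTG. The D-box, searched as TTACGTAA, TTATGTAA or its reverse complement TTACATAA, was present in 1 of the 13 windows, that of Per3, against 0.931% of all windows.

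Levels are the log2 of the processed signal less the log2 of the array's 75th percentile, so that 0 is the 75th percentile of the probes well above background. SRQ G and WT E had been read 2 grid rows out of place. Their spots correlated with the median array at 0.0220 as deposited and at 0.989 or more after a move of 2 rows, and the moved values are used throughout. Their dimmest spots carry a floor, which held 38.1% of the tested probes on SRQ G and 42.7% on WT E. SRQ C was dim, with a 75th percentile of 300.04 against 1582 to 4444 on the others. SRQ F had the highest level of all 14 arrays for 7 of 8 tested B-cell markers and 8 of 9 myeloid markers. The same held for 4 of 4 NK-cell markers, 3 of 4 erythroid markers and the 1 tested CD8 T-cell marker. T-cell markers were well above background on all 12 well-placed arrays for 7 of 7 genes, and the mean over these markers was 2.15 to 3.75 in SRQ and 2.55 to 3.75 in WT. The lowest T-cell means were those of SRQ F in SRQ and WT C in WT, and WT C had the highest myeloid mean of the WT arrays (0.88). The 2 slides held 5 SRQ and 2 WT arrays, and 2 SRQ and 5 WT arrays. SRQ A, B, C, F and G and WT F and G were on slide 1, and the others on slide 2.

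Of the 26 probes, 21 were well above background on at least 6 of the 12 well-placed arrays and entered the test, and they covered 9 of the 10 genes. Where a gene had several, the brightest probe stands for it. In bulk RNA, fewer cells of a type and less RNA per cell cannot be told apart, here and in each comparison. None of the 21 probes passed the limma test between genotypes (lowest adjusted p = 0.884), and of all 32831 probes tested 0% passed. At an unadjusted p below 0.05, limma had 1 of the 21 clock probes and 3.04% of all probes tested. The brightest probe was higher in SRQ for 7 genes and lower for 2, with a median difference of 0.13 on the log2 scale, beside 0.05 and 56.0% higher over all probes tested. The SRQ and WT ranges overlapped for all 9 genes, and they did not overlap for 0.0426% of all probes tested.

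**Figure D1:**
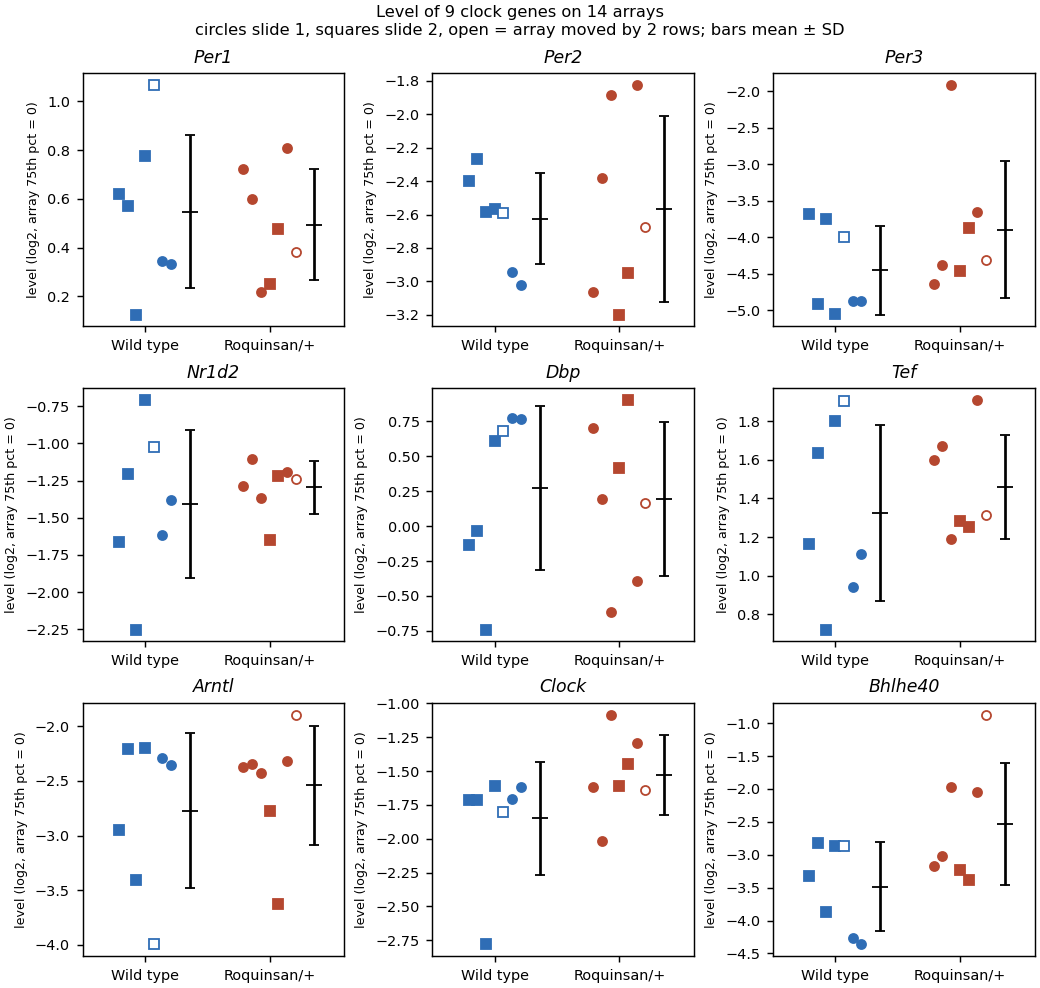
Level of 9 clock genes on each array, as log2 relative to the array's 75th percentile, with wild type in blue and Roquinsan/+ in red. Circles are slide 1, squares slide 2, open symbols the 2 arrays moved by 2 rows, and black bars the mean ± SD of 7 arrays. The genotypes overlap in each panel, WT C lies low for Clock, and SRQ C lies high for Per3.

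Per1 encodes a repressor of the loop that also responds quickly to hormones and signalling. Its level ran from 0.22 to 0.81 in SRQ (median 0.48) and from 0.13 to 1.07 in WT (median 0.57). The mean difference, SRQ less WT, was -0.05 (95% interval -0.42 to 0.31), so that a change beyond 0.748-fold or 1.24-fold lies outside the interval (limma adjusted p = 0.962). The values of both genotypes were interleaved.

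Per2, the repressor whose loss weakens the rhythm, lay between -3.20 and -1.82 in SRQ (median -2.67) and between -3.02 and -2.27 in WT (median -2.58). The SD was 0.557 over the 7 SRQ arrays and 0.271 over the 7 WT arrays. SRQ C and SRQ F, the dim array and the array high in B-cell, myeloid and other markers, held the 2 highest levels. The mean difference was 0.06 (-0.45 to 0.57).

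Per3 lay between -4.65 and -1.91 in SRQ (median -4.32) and between -5.06 and -3.68 in WT (median -4.88). SRQ C alone carried the top value, and the probe was at the floor on SRQ G and WT E. The mean difference was 0.56 (-0.30 to 1.41, limma adjusted p = 0.884), and it was 0.23 without SRQ C. A second, dimmer Per3 probe differed by -0.12 (-1.59 to 1.34).

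The Nr1d genes encode nuclear receptors that bind heme and repress Arntl. Nr1d1 had 1 probe, which was well above background on 1 of 6 well-placed SRQ arrays (D) and 3 of 6 WT arrays (A, B and D). Its processed signal was 4.85 to 27.3 in SRQ (median 14.9) and 13.5 to 30.5 in WT (median 24.0), before any scaling between arrays. It fell short of the filter, so it was not tested and its correlations with Dbp and Arntl were not computed. Nr1d2 was measured on all arrays, between -1.65 and -1.11 in SRQ (median -1.24) and between -2.25 and -0.71 in WT (median -1.38). The WT arrays reached both lower and higher than the SRQ arrays, and the mean difference was 0.11 (-0.34 to 0.56). The 2 other Nr1d2 probes differed by 0.20 and 0.24.

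Dbp and Tef encode activators of the same bZIP family that act at D-boxes. Dbp lay between -0.61 and 0.90 in SRQ (median 0.19) and between -0.74 and 0.77 in WT (median 0.61), with SRQ C, SRQ F and WT C the 3 lowest arrays. The difference was -0.08 (-0.71 to 0.55), and the second Dbp probe gave 0.04. Tef lay between 1.19 and 1.91 in SRQ (median 1.32) and between 0.72 and 1.90 in WT (median 1.17). Its difference was 0.13 (-0.32 to 0.58), and the 3 other Tef probes gave 0.23, 0.32 and 0.52, none past the limma threshold.

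Clock and Arntl are the activating pair. Clock lay between -2.01 and -1.08 in SRQ (median -1.61) and between -2.78 and -1.61 in WT (median -1.71). The other 6 WT arrays lay within -1.81 to -1.61, and WT C lay below them. The difference was 0.32 (-0.12 to 0.76, two-sided exact permutation p = 0.110 over 3432 arrangements). Arntl lay between -3.63 and -1.89 in SRQ (median -2.38) and between -4.00 and -2.20 in WT (median -2.35). Its difference was 0.23 (-0.46 to 0.93) on all 14 arrays and -0.08 without SRQ G and WT E.

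The brightest of the 4 Arntl probes did not follow the others closely, and 3 of the 4 are shown because the sign of the Arntl difference rests on which is read. All match transcript NM_007489 on the plus strand of chromosome 7, build mm9. A_52_P267651, the brightest, lies at chr7:120456978-120457037 and was at the floor on WT E. A_55_P2735445 lies at chr7:120439030-120439089. The 60 bases of A_66_P127371 are spread over chr7:120435023-120436706. Letters are given in lower case, with no part marked.
A_52_P267651: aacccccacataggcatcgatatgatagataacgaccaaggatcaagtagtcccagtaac
A_55_P2735445: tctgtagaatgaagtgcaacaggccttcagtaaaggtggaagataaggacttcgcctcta
A_66_P127371: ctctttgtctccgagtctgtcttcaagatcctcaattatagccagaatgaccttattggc
The SRQ less WT difference was 0.23 for A_52_P267651, 0.27 for A_55_P2735445 and -0.07 for A_66_P127371, with all 3 intervals including 0. Across the 14 arrays the brightest probe had a correlation of 0.20 with A_55_P2735445 and -0.47 with A_66_P127371, while these 2 had 0.63 with each other. The fourth probe, A_52_P24690, is assigned to another transcript. It had 0.78 with A_55_P2735445, 0.38 with A_66_P127371 and 0.34 with the brightest probe, and it differed by 0.02 between genotypes. The Dbp probes gave 0.89 with each other, and the brightest Nr1d2 probe gave 0.82 and 0.45 with the others.

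Bhlhe40, a repressor that is also induced in activated T-cells, showed the biggest difference of the 9 genes. Its level was -3.39 to -0.87 in SRQ (median -3.01) and -4.36 to -2.82 in WT (median -3.32). SRQ G, SRQ F and SRQ C lay above every WT array, and WT F and WT G lay below every other array. The difference was 0.95, or 1.94-fold (95% interval 1.06 to 3.55), with an exact permutation p of 0.0455 and a limma adjusted p of 0.884. It did not pass over all probes tested. Bhlhe40 differed by 0.68 without SRQ G and by 0.38 without SRQ C, SRQ F, SRQ G and WT E.

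**Figure D2:**
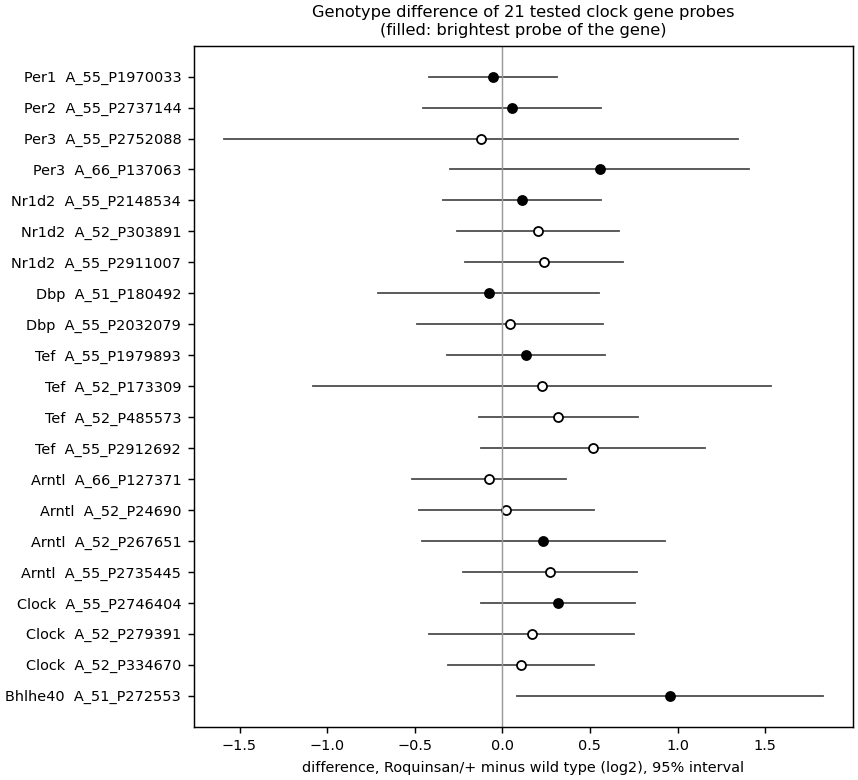
Difference between genotypes (Roquinsan/+ minus wild type, log2) of the 21 tested clock gene probes, with the 95% interval from limma. Filled points are the brightest probe of each gene, and only the Bhlhe40 interval (0.08 to 1.83) leaves out 0.

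Several differences were unlike in size or sign on the 2 slides. Bhlhe40 was 2.10 higher in SRQ on slide 1 (exact permutation p = 0.0476, the smallest that 21 arrangements allow) and differed by -0.16 on slide 2 (exact permutation p = 0.714). Per2 differed by 0.62 on slide 1 (exact permutation p = 0.190) and by -0.59 on slide 2 (exact permutation p = 0.0476). Dbp went the other way, with -0.76 on slide 1 and 0.58 on slide 2. Nr1d2 differed by 0.26 on slide 1 (exact permutation p = 0.0476) and by -0.07 on slide 2 (exact permutation p = 0.857). The smallest possible p was thus not reached by Bhlhe40 alone. Clock and Per3 kept a positive difference on both slides, at 0.13 and 0.40 for Clock and at 1.09 and 0.11 for Per3. Whether the slides differ from each other was not tested. The slide values rest on 2 WT arrays of slide 1 and 2 SRQ arrays of slide 2. They also rest on SRQ C, SRQ F and SRQ G, which were all on slide 1. Bhlhe40 was -1.97, -2.05 and -0.87 on these, beside -3.17 on SRQ A and -3.01 on SRQ B. With slide as a block the Bhlhe40 difference was 0.97 (-0.04 to 1.98).

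**Figure D3:**
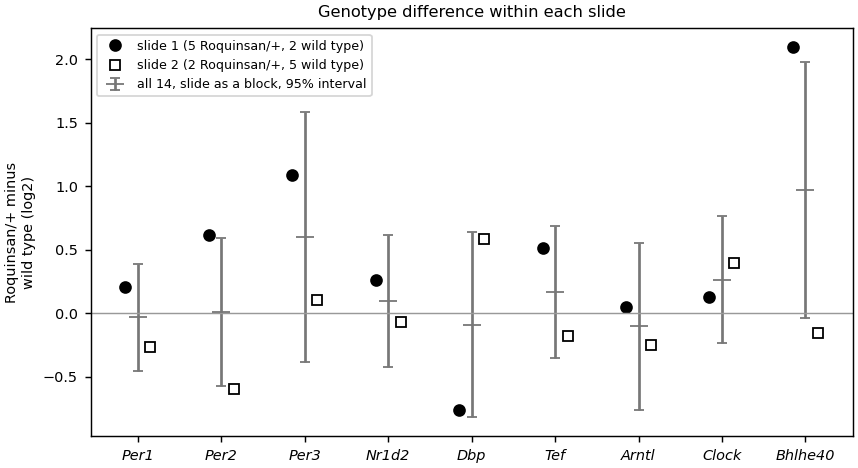
Difference between genotypes (log2) of each gene within slide 1 (filled circles) and slide 2 (open squares), and on all 14 arrays with slide as a block (grey, 95% interval). Per1, Per2, Nr1d2, Dbp, Tef, Arntl and Bhlhe40 lie on opposite sides of 0 on the 2 slides.

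The clock genes were then set against each other across the arrays, after each level was centred on its genotype mean. The 9 genes gave 36 pairs, of which 3 passed a permutation test of Pearson's r after Benjamini-Hochberg adjustment over the 36 and 6 passed before it. The median r was 0.23, with 27 pairs positive and 9 negative. Values of this size were common among all tested probes. Per3 and Bhlhe40, at 0.23, lay at the 50.8th percentile of the correlations of Per3 with all tested probes. Clock and Bhlhe40, also at 0.23, lay at the 67.5th percentile of those of Clock. Per3 and Dbp passed before adjustment at -0.66, yet 9.42% of all tested probes had a more negative correlation with Per3. Per2 and Per3 passed before adjustment at 0.61, and 1835 probes had a higher correlation with Per2. The share of positive pairs among all probes was not computed, and neither was the share of all probe pairs that pass the same test.

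Per1 and Tef were the closest pair, at r = 0.91 (permutation p = 2e-05, adjusted p = 7.2e-04) and Spearman's rho = 0.90 (adjusted p = 0.00108). WT C was lowest for both genes, and WT E, WT D and SRQ F were high for both. The correlation was 0.91 within SRQ, 0.91 within WT, 0.93 on slide 1 and 0.87 on slide 2. It was 0.84 without the 2 arrays farthest from the Per1 median, and 0.85 on the 10 arrays left without SRQ C, SRQ F, SRQ G and WT E. Among all tested probes, 3 had a higher correlation with Per1 than the Tef probe had. The other Tef probes followed Per1 less, at 0.56, 0.28 and 0.19, the last of them above background on 7 of 12 arrays.

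Nr1d2 and Tef varied together at r = 0.83 (permutation p = 0.0015, adjusted p = 0.0270), with rho = 0.82 (adjusted p = 0.0503). The correlation was 0.91 within WT, 0.51 within SRQ, 0.63 on slide 1 and 0.93 on slide 2. It was 0.75 without the 2 arrays farthest from the Nr1d2 median and 0.88 on the 10 arrays. Of all tested probes, 63 had a higher correlation with Nr1d2 than the Tef probe had. The pair lost its call without WT C or WT D, at 0.77 or more over all single omissions. With normexp background correction the correlation was 0.73 (adjusted p = 0.0581), with slide as a block 0.84 (adjusted p = 0.0517), and with the mean of the probes of each gene 0.46 (adjusted p = 0.278), so that these settings also ended the call. The 3 other Tef probes gave 0.81, 0.41 and 0.11 with the same Nr1d2 probe, and the brightest Tef probe gave 0.31 and 0.49 with the 2 other Nr1d2 probes. Per1 and Nr1d2 had r = 0.72 (adjusted p = 0.0749), rho = 0.74 (adjusted p = 0.0503), and 0.80 on the 10 arrays. They had 0.41 on slide 1 and 0.84 on slide 2. Of all tested probes, 192 had a higher correlation with Per1 than the Nr1d2 probe had. The 2 other Nr1d2 probes followed Per1 less, at 0.10 and 0.31, and the mean of the probes gave 0.42 (adjusted p = 0.372).

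Per2 and Dbp ran in opposite directions, at r = -0.74 (permutation p = 0.00232, adjusted p = 0.0278) and rho = -0.74 (adjusted p = 0.0503). A more negative correlation with Per2 was held by 1.28% of all tested probes. SRQ C and SRQ F had high Per2 and low Dbp. The correlation was -0.56 without these 2 arrays. It was -0.96 on slide 1, which held both of them, and -0.02 on slide 2, so that it was seen on slide 1 alone. The pair lost its call when any of SRQ A, SRQ B, SRQ C, SRQ F, WT A or WT F was left out, at correlations between -0.88 and -0.67 over all single omissions. It was also lost with quantile normalization (-0.50), the 75th percentile over all probes (-0.47), the authors' log2 values (-0.28, adjusted p = 0.682) and slide as a block (-0.75, adjusted p = 0.174). Per3 and Dbp had r = -0.66 (adjusted p = 0.0749).

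The pairs of the loop chosen for naming did not pass. Per2 and Per3 had r = 0.61 (permutation p = 0.0270, adjusted p = 0.162) and rho = 0.49 (adjusted p = 0.386). Their correlation was 0.25 without SRQ C and SRQ F, which were also the 2 arrays farthest from the Per2 median. Arntl and Dbp, which peak at opposite phases in tissue sampled over a day, had r = -0.07 (adjusted p = 0.843) and rho = -0.02 (adjusted p = 0.941). Arntl and Clock had r = 0.28 (adjusted p = 0.604) and rho = 0.31 (adjusted p = 0.596). Per1 and Bhlhe40 had r = 0.30 (adjusted p = 0.604) and rho = 0.34 (adjusted p = 0.596). Without the 2 arrays farthest from the median of Dbp, Arntl and Per1 in turn, these 3 correlations were -0.33, 0.58 and 0.17. Within slide 1 and slide 2 they were 0.19 and -0.08 for Arntl and Dbp, -0.25 and 0.37 for Arntl and Clock, and -0.52 and 0.77 for Per1 and Bhlhe40.

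**Figure D4:**
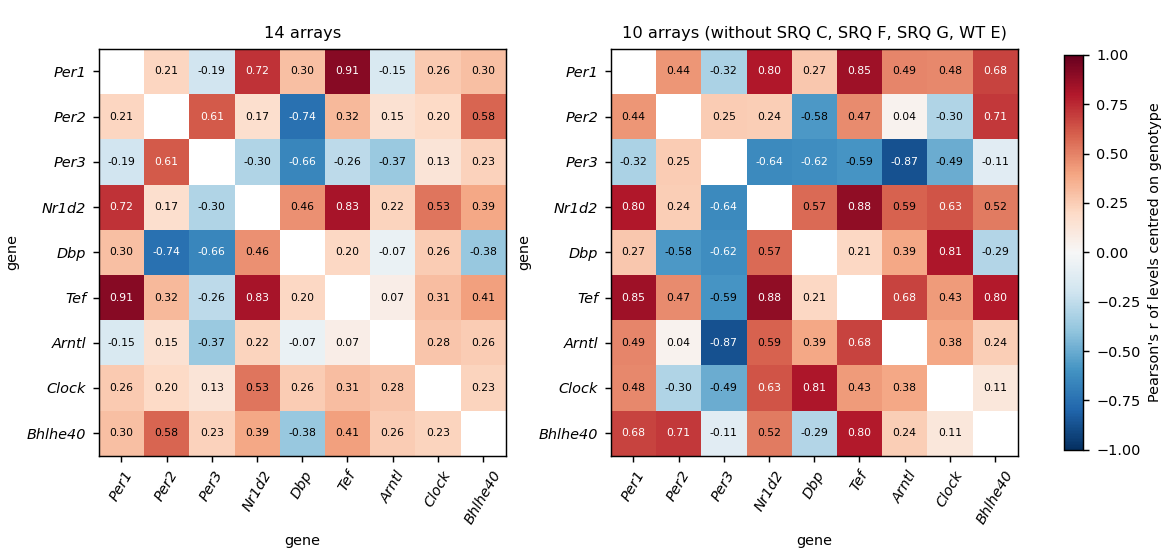
Pearson's r of genotype-centred levels for each pair of the 9 clock genes, on all 14 arrays (left) and on 10 arrays without SRQ C, SRQ F, SRQ G and WT E (right), from -1 in blue to 1 in red. Per1, Nr1d2 and Tef stay between 0.72 and 0.91 on the left and between 0.80 and 0.88 on the right.

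Markers of T-cells and of other cell types moved with some of these genes. Each of the 9 genes was set against 5 array measures, the log2 of the 75th percentile and the mean level of T-cell, B-cell, myeloid and immediate early markers, which made 45 relations, of which 2 passed. Dbp rose with the T-cell markers at r = 0.87 (permutation p = 4e-05, adjusted p = 0.00180) and rho = 0.82 (adjusted p = 0.0171). It ran opposite to the myeloid markers at r = -0.75 (permutation p = 0.00196, adjusted p = 0.0441) and rho = -0.78 (adjusted p = 0.0333). The share of all tested probes that follow these markers as closely was not computed, so neither relation is shown to be particular to Dbp. Dbp and the T-cell markers had 0.89 without the 2 arrays farthest from the marker median and 0.90 on the 10 arrays, and 0.93 and 0.90 on slides 1 and 2. Dbp and the myeloid markers had -0.82 without the 2 farthest arrays, -0.92 on the 10 arrays, and -0.65 and -0.78 on slides 1 and 2. Bhlhe40 had 0.46 with the B-cell markers (adjusted p = 0.352, rho = 0.65, adjusted p = 0.140) and 0.76 with them on the 10 arrays. The SRQ mean was above the WT mean for 8 of 8 tested B-cell markers and 9 of 9 myeloid markers, and for 0 of 7 T-cell markers, beside 56.0% of all probes tested. The B-cell and myeloid means were 1.68 and 2.97 on SRQ F, against at most -1.34 and 0.42 on the other SRQ arrays. Median B-cell means were -2.70 in SRQ and -3.46 in WT, and median myeloid means -0.01 and -0.63. Median T-cell means were 3.45 and 3.46. Bhlhe40 had 0.55 with the immediate early markers (adjusted p = 0.223, rho = 0.54, adjusted p = 0.243).

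For Per2, the correlation was -0.76 with the T-cell markers (adjusted p = 0.0654, rho = -0.72, adjusted p = 0.0870) and 0.70 with the B-cell markers (adjusted p = 0.0654, rho = 0.66, adjusted p = 0.121). On the 10 arrays Per2 had -0.29 with the T-cell markers and 0.65 with the B-cell markers. Tef had 0.68 with the B-cell markers (adjusted p = 0.0654, rho = 0.62, adjusted p = 0.166), and Per1 0.44 (adjusted p = 0.352, rho = 0.41, adjusted p = 0.424). Nr1d2 had 0.36 with them (adjusted p = 0.415). With the T-cell markers Per1, Nr1d2 and Tef had 0.19, 0.38 and 0.13 on all 14 arrays, none past the threshold. On the 10 arrays, which kept WT C, these correlations were 0.61, 0.79 and 0.56. Nr1d2 had -0.32 with the myeloid markers on all 14 arrays and -0.66 on the 10 arrays. Per3 had -0.80 with the 75th percentile (adjusted p = 0.0678), but rho was -0.33 (adjusted p = 0.545) and r was -0.45 without the 2 farthest arrays, SRQ C being the dimmest array. With the T-cell markers Per3 had -0.70 (adjusted p = 0.0678), rho was -0.76 (adjusted p = 0.0333), and r was -0.58 without the 2 farthest arrays and -0.66 on the 10 arrays. Clock had 0.06 with the T-cell markers on all 14 arrays (adjusted p = 0.909, rho = -0.21, adjusted p = 0.719), but 0.90 without the 2 arrays farthest from the marker median and 0.92 on the 10 arrays. Both of these sets kept WT C, which lay low for Clock (-2.78) and for the T-cell markers. Its T-cell marker mean was 2.55, against 3.31 or more on the other WT arrays. The correlation on these sets without WT C was not computed. The mean over 8 tested B-cell markers ran from -4.43 to 1.68 in SRQ and from -4.66 to -0.21 in WT, and that over 9 myeloid markers from -0.71 to 2.97 and from -1.83 to 0.88. The part of these cells in the clock gene correlations was not tested.

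**Figure D5:**
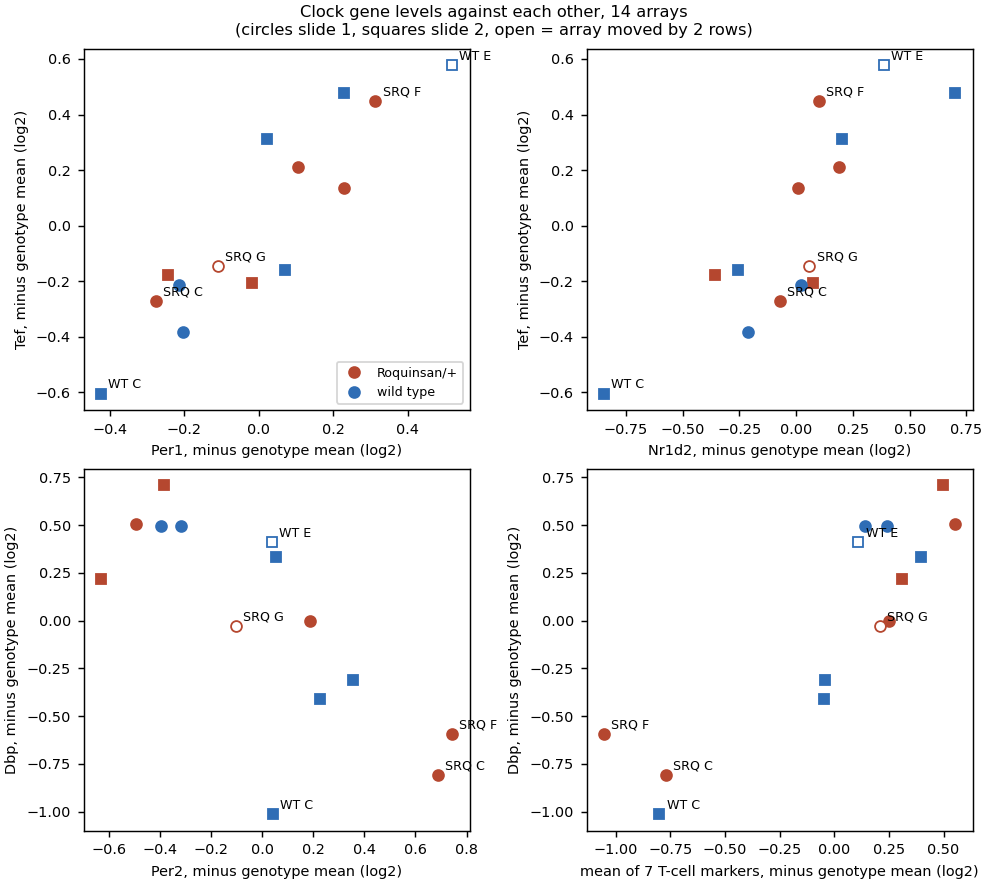
Genotype-centred levels (log2) of Tef against Per1 and Nr1d2, of Dbp against Per2, and of Dbp against the mean of 7 T-cell markers, for 14 arrays in the colours and symbols of the plot of levels. Per1 and Tef lie along 1 line (r = 0.91), while SRQ C, SRQ F and WT C hold the low end of Dbp.

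Between mice of 1 genotype, 5 of the 9 clock genes had an SD below the median of all tested probes. The SD of centred levels was 0.27 for Per1, 0.36 for Clock, 0.37 for Tef, 0.38 for Nr1d2, 0.44 for Per2, 0.57 for Dbp, 0.63 for Arntl, 0.79 for Per3 and 0.81 for Bhlhe40, beside a median of 0.57 over all tested probes. Per1 lay at the 11.0th percentile of all tested probes and Bhlhe40 at the 69.5th, with the median of the 9 genes at 34.7. On the 10 arrays the median percentile was 57.5, and Per1 stayed the least variable of the 9, at the 16.6th percentile.

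The wider clock was read from a list of 22 other genes linked to the clock, not all of which belong to the loop described above. Of these, Npas2, Rorb, Hlf and Bhlhe41 were too dim to be tested. The other 18 were tested, 9 higher and 9 lower in SRQ, and none passed the limma threshold (median difference 0.00). The 4 with the largest differences were Nfil3, the repressor that competes with Dbp and Tef at D-boxes (0.71), Timeless (-0.48), its partner Tipin (-0.45) and the deubiquitinase Usp2 (-0.43), all with an adjusted p of 0.884 in limma. Nfil3 differed by 1.67 on slide 1 and 0.02 on slide 2. Cry2, the repressor that acts with the Per proteins, was singled out after its values were seen. The reason was the only unadjusted limma p below 0.05 in the list (0.0108), 1 of 18 tested, beside 3.04% of all probes tested. Its exact permutation p is therefore that of a gene picked by its difference. It lay between -0.60 and -0.23 in SRQ and between -0.30 and 0.26 in WT, a difference of -0.40 (SE 0.136, exact permutation p = 0.00233, limma adjusted p = 0.884). It differed by -0.15 on slide 1 and -0.43 on slide 2, and the 2 other Cry2 probes gave 0.00 and 0.19. Of 8 genes induced by glucocorticoids, which also induce Per1, 4 were higher and 4 lower in SRQ and none passed.

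The genes most like the clock in pattern were found by correlation with the mean standardised level of Per1, Per2, Per3, Nr1d2, Dbp, Tef and Bhlhe40 across the 14 arrays, among 15437 named genes. The mean followed Tef (0.87), Nr1d2 (0.84) and Per1 (0.84) and hardly Dbp (0.05) or Per3 (0.11). The 5 highest were Ppm1n (0.92), Polm (0.90), Clcn7 (0.89), Gm8013 (0.87) and 2210417A02Rik (0.87), of which Ppm1n, Gm8013 and 2210417A02Rik were at the floor on both moved arrays. The 5 lowest were Ddx49 (-0.91), Eif2b1 (-0.90), Cct7 (-0.89), Tbcd (-0.86) and Cnpy2 (-0.86). These are descriptions over 14 arrays of genes chosen as extremes.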

How the data were processed

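RNA of CD4+ T-cells from 14 mice was hybridised to one-colour Agilent arrays (Feature Extraction 10.5.1.1, per the submitters' processing notes). The authors deposited scanner intensities, including the background-subtracted processed signal, and a table of log2 values whose method is not given in the sources used here. All shifts of up to 6 rows or columns were tried for each array, and 2 arrays were moved by 2 rows, which left 328 spots without a value. The 75th percentile was taken over 24285 probes well above background on the 12 well-placed arrays. Control spots were left out. Probes well above background on at least 6 of the 12, counted without regard to genotype, were compared between genotypes by lmFit and eBayes of the limma package (3.58.1, under R 4.3.3), with Benjamini-Hochberg adjusted p-values and a threshold of 0.05, beside two-sided exact permutation tests of single genes. Correlations used two-sided permutations within genotype (100000 shuffles, exact below 10 arrays, Python 3.11.15, scipy 1.17.1). Both kinds of test were also run on simulated data. For limma these had independent noise at each probe, without the floor of SRQ G and WT E or a slide difference. They therefore cannot show how that test behaves with such features. The number of arrays limits the precision.

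The members and gene lists were chosen with earlier results of these data known. All 10 members are reported. Other clock genes are given by count and the 4 largest differences, and likeness by the 5 highest and 5 lowest genes. Alternatives covered the background correction, normalization, probe filter, probe of a gene, slide, replicate letter, displaced arrays and each array left out. The arrays left out together, the floor set to missing and the alternatives of the marker correlations were added after seeing the data.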

Additional observations from a re-analysis of the deposited data

Results flagged for a closer look

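Of 18 groups of 7 arrays (9 genes in both genotypes), 2 held an array whose gap to its nearest neighbour, as a share of the group's range, was above Dixon's 95% critical value. Chance gives about 1 such group in 20. Per3 was -1.91 on SRQ C, with the other 6 SRQ arrays between -4.65 and -3.66, and SRQ C was the dimmest of the 14 arrays. Clock was -2.78 on WT C, with the other 6 WT arrays between -1.81 and -1.61.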

How the results depend on the processing

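No probe was called and no clock gene passed limma under any of the 31 alternatives in which probes were counted, with 53 to 3199 probes at an unadjusted p below 0.05. The median difference of the clock genes lay between -0.16 and 0.26, and between 0.06 and 0.23 when single arrays were left out. Per3 and Clock kept a positive difference throughout. The differences of the other genes, none of which passed, changed sign as follows. With probe names as deposited Per1 was 0.048 and Arntl -0.44. With quantile normalization Per2 was -0.067. With the 75th percentile over all probes Per2 was -0.062 and Nr1d2 -0.0058. With the authors' log2 values Per1 was 0.038 and Per2 -0.18. With slide as a block Arntl was -0.10. On slide 1 alone Per1 was 0.21. On slide 2 alone Per2 was -0.59, Nr1d2 -0.067, Dbp 0.58, Tef -0.18, Arntl -0.25 and Bhlhe40 -0.16. Without SRQ G and WT E, Per1 was 0.051 and Arntl -0.079, and with floor values missing Arntl was -0.036. Without SRQ C and SRQ F, Per2 was -0.23 and Dbp 0.20, and without all 4 arrays Per1 was 0.050, Per2 -0.27, Dbp 0.35 and Arntl -0.22. When single arrays were left out, Per1 ran from -0.12 to 0.032, Per2 from -0.067 to 0.16, Nr1d2 from -0.028 to 0.23 and Dbp from -0.25 to 0.056. The causes were not tested.

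The replicate letters do not pair the mice by the labels, and the deviations of same-letter arrays correlated between -0.28 and 0.41. With the replicate block no probe was called (799 at an unadjusted p below 0.05) and Bhlhe40 differed by 0.95. With the replicate block and slide together Nr1d2 was -0.14, and with the replicate block Arntl and Dbp correlated at 0.32.

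The number of pairs called, 3 of 36 in the reported setting, was 5 with the 75th percentile over all probes, 1 with slide as a block, 6 without SRQ G and WT E, 27 with probe names as deposited, 5 with the mean of the probes of a gene, 1 with Spearman's rho, and 2 to 5 when single arrays were left out. It was 0 within SRQ, within WT and within either slide, where the smallest exact permutation p of 1 slide is 0.00417. Per1 and Tef were among the pairs called in these settings, single omissions included, except within SRQ, within WT, within either slide, with the mean of the probes (r = 0.50) and with probe names as deposited, where their correlation was -0.48. Arntl and Dbp correlated at 0.0027 with quantile normalization, 0.14 with the percentile over all probes, 0.31 with the authors' values, 0.10 without SRQ G and WT E, 0.27 within WT, 0.19 on slide 1, 0.0037 without SRQ C and SRQ F and 0.39 without all 4, and from -0.31 to 0.18 when single arrays were left out. Per1 and Bhlhe40 correlated at -0.16 within SRQ and -0.52 on slide 1, Arntl and Clock at -0.15 and -0.25, and Per2 and Per3 at -0.059 on slide 2. The median percentile of the SDs, 34.7, was 53.1 with probe names as deposited, 57.5 without all 4 arrays, and 28.4 to 39.9 when single arrays were left out. The floor on SRQ G and WT E limits what the dim Per3 and Arntl probes show there.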
